A study of Mus musculus with 18 samples.

Results

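Connexins are the subunits of gap junctions, and 7 of their genes stand here for glia and neurons of the spinal cord. Gjb1 and Gjc3 are connexins of oligodendrocytes, Gja1, Gjb6 and Gjb2 are connexins of astrocytes, and Gjd2 and Gjc1 are connexins of neurons. The genes were taken by symbol from the authors' table of gene loci, in which each symbol matched 1 locus, so 7 of 58570 loci were described. Gjb2 was held in a locus joined with the predicted gene Gm4491, and its values are those of the joined locus.

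Total RNA was taken from whole spinal cords of the SMNΔ7 line, a mouse model of spinal muscular atrophy (SMA), and sequenced after ribosomal RNA depletion with a stranded kit. Homozygous pups are labelled SMA and heterozygous pups of the same line are labelled control, each at postnatal days 2, 6 and 10 (P2, P6 and P10). The labels do not list the alleles; in this line affected pups are known to lack mouse Smn1 and to carry human SMN transgenes, in every tissue. The labels give 3 libraries for each of these 6 groups, 18 in all, and the authors' tables combine them to 1 value per group and locus. No value per library was held, so no standard deviation between animals can be given, and whether the 3 libraries came from separate animals is not stated.

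Gap junctions join the cytoplasm of neighbouring cells through paired hexamers of connexins and pass ions and small molecules. In the central nervous system astrocytes couple to each other and to oligodendrocytes, and this glial network is known for the spread of potassium and metabolites away from active axons and along myelin. Neurons couple through electrical synapses, which are frequent in the spinal cord around birth and are reduced as chemical synapses mature.

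Levels are in FPKM, which scales fragments to both transcript length and depth. Comparisons between genes therefore rest on the transcript lengths estimated by the authors' model. In the group labelled SMA at P2, Gjb1 and Gjc3 had FPKM 9.42 and 9.43 from 110 and 452 estimated fragments. Each group held 6881671 to 7386338 estimated fragments, with 18031 to 19336 loci at FPKM 1 or above. Smn1, the mouse gene that affected pups of this line lack, was at FPKM 2.70, 4.46 and 3.54 in control at P2, P6 and P10. In the groups labelled SMA its FPKM was 0.0210 at P2. It was listed at 0 at P6 and had FPKM 2.82 at P10, which is 79.8% of control. The group labelled SMA at P10 therefore went against its label, and results that use it are given beside those of P2 and P6. Of the astrocyte, neuron and myelin markers, Gfap reached FPKM 65.6 to 318, Nefl 183 to 246 and Mbp 150 to 4281 over the 6 groups, so markers of all 3 cell classes were detected in the cord RNA.

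Gjb1 encodes Cx32, a connexin of the myelin of oligodendrocytes and, in nerves, of Schwann cells. The gene spans 101376378 to 101385629 of chromosome X (GRCm38, plus strand), and 1 exon holds all of its coding sequence. Gjc3 encodes Cx29, which lies in the inner membrane of myelin facing the axon; the gene is on chromosome 5 from 137953461 to 137963098 on the minus strand, with 2 coding exons. Gja1 encodes Cx43, the main connexin of astrocytes, and its gene, with 1 coding exon, spans 56377330 to 56402513 of chromosome 10 (plus strand). RefSeq promoters (GRCm38.p6) were held for 6 of the 7 genes, and the 250 bases before the start site are printed for the oligodendrocyte pair, whose levels moved most between groups, and for Gja1, the most abundant connexin. Capitals mark SOX-type words (ACAAAG or ACAATG, read on both strands) and the AP-1 word (TGANTCA). The Gjb1 stretch is chrX:101383482-101383731 on the plus strand, before the last of 4 listed start sites, chosen for print after its words were seen; Gjc3 is chr5:137963099-137963348 on the minus strand, and Gja1 is chr10:56377050-56377299 on the plus strand.
Gjb1: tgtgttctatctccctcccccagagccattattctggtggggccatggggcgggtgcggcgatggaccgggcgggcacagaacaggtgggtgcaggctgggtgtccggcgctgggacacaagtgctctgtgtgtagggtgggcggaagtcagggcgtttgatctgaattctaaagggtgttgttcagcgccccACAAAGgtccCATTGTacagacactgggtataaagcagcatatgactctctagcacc
Gjc3: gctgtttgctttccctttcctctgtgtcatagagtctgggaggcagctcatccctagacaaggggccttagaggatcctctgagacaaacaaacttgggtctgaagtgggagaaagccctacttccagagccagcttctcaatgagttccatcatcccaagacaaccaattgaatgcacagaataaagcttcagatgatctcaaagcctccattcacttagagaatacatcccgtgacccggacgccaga
Gja1: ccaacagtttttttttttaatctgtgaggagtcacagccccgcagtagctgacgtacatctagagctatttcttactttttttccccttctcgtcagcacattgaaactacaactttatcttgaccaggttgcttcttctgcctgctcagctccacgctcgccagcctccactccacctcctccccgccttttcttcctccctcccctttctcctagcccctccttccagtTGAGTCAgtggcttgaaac

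In the Gjb1 promoter 2 SOX-type words face each other, at positions -57 and -47 from the start site, with 4 bases between them. A single SOX-type word is common, in 28.6% of 32851 mouse promoters of 300 bases, while a facing pair 0 to 6 bases apart occurred in 41, or 0.125%; this definition of a pair was chosen after the sequence was seen. The same Gjb1 promoter holds a TATA box word (TATAAA) at -29 and 3 GC box words (GGGCGG), which 13.6% and 35.7% of promoters hold. Of the other 3 promoters listed for Gjb1, the first held 1 SOX-type word, at -176, and the next pair held none of the words searched. The Gjc3 promoter held no SOX-type, AP-1, GC box, TATA box or MYRF-type word (CTGGCAC or CTGGTAC, in 7.10% of promoters). Gja1 held an AP-1 word at -19, as 7.81% of promoters do somewhere in the window. Among the others, Gjb2 held 2 GC boxes, Gjd2 held 1 and Gjb6 held none of these words. The GC content was 43.3%, 51.7% and 55.0% in those 3 Gjb1 promoters, and ran from 47.7% in Gja1 to 70.0% in Gjb2 and 75.0% in Gjd2 among the other genes. These matches describe letters in a window and not binding.

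Both oligodendrocyte connexins were lowest in the control group at P2 and highest in the control group at P10. Gjb1 was at FPKM 1.14 (authors' interval 0.150 to 2.14), 5.41 (2.30 to 8.52) and 23.1 (13.0 to 33.1) in control at P2, P6 and P10. In the groups labelled SMA it was at FPKM 9.42 (2.68 to 16.1), 6.02 (2.58 to 9.45) and 13.8 (6.69 to 20.8). The control intervals of Gjb1 did not overlap from age to age, while those labelled SMA overlapped at all 3 ages. Gjc3 followed the same order of groups, at FPKM 2.08, 5.37 and 18.4 in control and 9.43, 5.86 and 11.9 in the groups labelled SMA. All intervals of Gjc3 overlapped, as the one of control at P10 ran from 3.50 to 33.2. The depth behind the lowest value was small: 11.3 estimated fragments of Gjb1 in control at P2, against 259 in control at P10.

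The astrocyte connexins were led by Gja1, the most abundant of the 7 in every group. Gja1 was at FPKM 20.6 (12.6 to 28.7), 32.5 (19.2 to 45.8) and 47.9 (28.8 to 66.9) in control at P2, P6 and P10. In the groups labelled SMA it was at FPKM 35.0, 35.9 and 35.4, which lie between the control values of P6 and P10. Gjb6, which encodes Cx30 and appears in astrocytes of grey matter after birth, was at FPKM 3.01, 5.46 and 9.84 in control and 7.61, 8.24 and 7.05 in the groups labelled SMA. The lower bound of its interval in control at P2 was listed at 0. Gjb2, which encodes Cx26 and is found in astrocytes and in the meninges, stayed low: FPKM 2.27, 3.02 and 3.19 in control and 1.79, 2.98 and 2.38 in the groups labelled SMA. Gjb6 and Gjb2 are neighbours on the minus strand of chromosome 14, from 57123303 to 57133611 and from 57098600 to 57104702, with 18601 bases between them. Fragments of Gm4491, which lies between them on the same strand from 57112506 to 57115883, cannot be told apart from those of Gjb2 in the joined locus.

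Of the neuronal connexins, Gjd2 was nearly level across ages and labels, and Gjc1 had lower values at each later age under both labels. Gjd2, which encodes Cx36, the connexin of most electrical synapses in mammals, was at FPKM 16.8, 16.6 and 14.9 in control at P2, P6 and P10 and 15.1, 17.2 and 16.3 in the groups labelled SMA. Gjc1, which encodes Cx45, found in neurons and in vessel walls, was at FPKM 6.08, 4.96 and 3.99 in control and 5.14, 4.24 and 3.84 in the groups labelled SMA. All intervals of each gene overlapped, with Gjd2 between 5.48 and 27.9 and Gjc1 between 1.43 and 9.79 over the 6 groups. Gjd2 lies on chromosome 2 from 114009601 to 114013619 and Gjc1 on chromosome 11 from 102799579 to 102819700, both on the minus strand. The antisense transcript A530058N18Rik overlaps the start of Gjd2 on the plus strand, and the strand setting of the counting is not given in the sources used here. The locus listed for Gjd2 runs from 114009381 to 114068324, 14.7 times the length of the gene. This span also holds the protein-coding gene Actc1 on the same strand and C130080G10Rik on the opposite strand. The locus is named Gjd2 alone, and whether its values include fragments of these other genes was not tested.

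**Figure D1:**
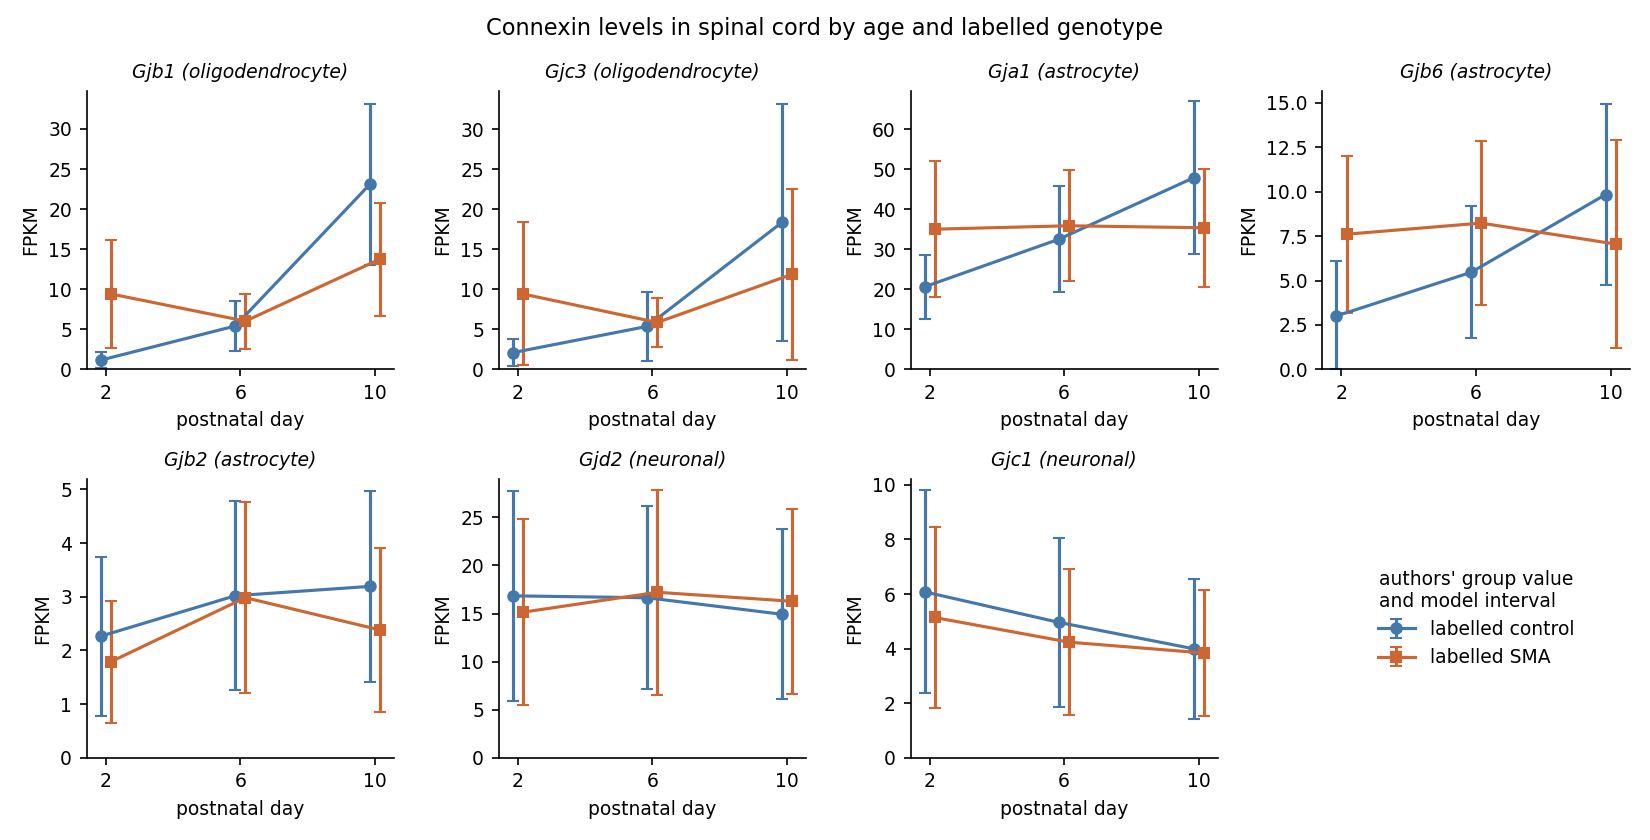
Each panel plots the FPKM of 1 connexin against postnatal day for the groups labelled control (circles) and SMA (squares); bars are the authors' model interval, not a spread between animals. The control lines of Gjb1 and Gjc3 climb from 1.14 and 2.08 to 23.1 and 18.4, Gja1 stays near 35 in the groups labelled SMA, and Gjd2 stays between 14.9 and 17.2 in all groups.

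From P2 to P10 the control cord gained oligodendrocyte connexins. Gjb1 rose 20.2-fold, a log2 ratio of 4.33 ± 0.72 (standard error from the authors' interval), and Gjc3 rose 8.82-fold, a log2 ratio of 3.14 ± 0.84. In estimated fragments Gjb1 went from 11.3 to 259 and Gjc3 from 119 to 793, for Gjc3 a smaller rise than by FPKM. Both genes passed the z test from FPKM with Benjamini-Hochberg adjustment over all loci tested, Gjc3 at an adjusted p of 0.0344. These 2 of 7 connexins were called where 0.546% of 19956 loci were called higher and 0.631% in either direction, and 47 loci had a greater ratio than Gjb1. Without the filter on low FPKM the adjusted p of Gjc3 in the z test was 0.0627. In whole cord RNA, more or fewer cells of a type and more or less RNA per cell cannot be told apart.

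The other connexins of control did not pass this test from P2 to P10. The log2 ratio was 1.22 ± 0.41 for Gja1, with an adjusted p of 0.263 in the z test, and 1.71 ± 0.85 for Gjb6. With a log-scale reading of the interval, chosen after seeing the data, Gja1 passed at an adjusted p of 0.0277 in the z test. Gjb2 had 0.50 ± 0.63, Gjd2 -0.17 ± 0.65 and Gjc1 -0.61 ± 0.65. An unadjusted p under 0.05 was reached by 4 of 7 connexins, and the median of the 7 log2 ratios was 1.22, beside 0.02 over all loci.

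In control both steps between ages contributed to the change of the oligodendrocyte pair. Gjb1 had a log2 ratio of 2.24 ± 0.77 from P2 to P6 and 2.09 ± 0.53 from P6 to P10. Gjc3 had 1.37 ± 0.84 and 1.77 ± 0.84. From P2 to P6 0 of 7 connexins were called by the z test and 1 had an unadjusted p under 0.05, where 0.112% of all loci were called. From P6 to P10 0 of 7 were called and 2 had an unadjusted p under 0.05, where 0.0751% of all loci were called; Gjb1 had an adjusted p of 0.0846 in the z test from FPKM and of 0.0397 from the deposited counts.

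In the groups labelled SMA no connexin had a log2 ratio above 0.55 in size from P2 to P10. The log2 ratio was 0.55 ± 0.65 for Gjb1, 0.33 ± 0.96 for Gjc3, 0.01 ± 0.47 for Gja1 and -0.11 ± 0.75 for Gjb6. Gjb2 had 0.41 ± 0.66, Gjd2 0.11 ± 0.64 and Gjc1 -0.42 ± 0.65. The z test called 0 of 7 connexins and 0 had an unadjusted p under 0.05, where 0.0602% of 19938 loci were called. This comparison uses the group labelled SMA at P10, whose Smn1 was near control.

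The classes were compared by the mean log2 ratio of their members, with errors of the members taken as independent. The intervals between classes were not adjusted for the number of class comparisons. From P2 to P10 in control the mean was 3.74 ± 0.55 for the oligodendrocyte connexins, 1.14 ± 0.38 for the astrocyte connexins and -0.39 ± 0.46 for the neuronal connexins. The oligodendrocyte mean exceeded the astrocyte mean by 2.60 (95% interval 1.28 to 3.91) and the neuronal mean by 4.13 (2.72 to 5.54). The astrocyte mean exceeded the neuronal mean by 1.53 (0.37 to 2.70). All 3 intervals excluded 0. In the groups labelled SMA the same 3 intervals from P2 to P10 all held 0, with an oligodendrocyte mean of 0.44 ± 0.58.

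Between the labels at P2, the oligodendrocyte connexins had higher values in the group labelled SMA. Gjb1 was at 8.23 times control, a log2 ratio of 3.04 ± 0.83 (95% interval 1.42 to 4.66), and Gjc3 at 4.53 times, a log2 ratio of 2.18 ± 0.92 (0.38 to 3.98). After Benjamini-Hochberg adjustment 0 of 7 connexins were called by the z test, where 0.126% of 19114 loci were called, and 2 had an unadjusted p under 0.05. The adjusted p of Gjb1 was 0.155 in the z test from FPKM, and 40 loci had a greater ratio. From the deposited counts Gjb1 was called, with a log2 ratio of 3.27 ± 0.80 and an adjusted p of 0.0453 in the z test.

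The astrocyte connexins differed less at P2 and not in 1 direction. The log2 ratio was 0.76 ± 0.46 for Gja1, 1.34 ± 0.87 for Gjb6 and -0.34 ± 0.67 for Gjb2. The neuronal connexins had -0.15 ± 0.67 for Gjd2, with an interval of -1.47 to 1.16, and -0.24 ± 0.65 for Gjc1. The median of the 7 log2 ratios was 0.76, beside -0.01 over all loci. The mean of the oligodendrocyte connexins exceeded that of the astrocyte connexins by 2.02 (95% interval 0.58 to 3.46) and that of the neuronal connexins by 2.81 (1.29 to 4.33). The astrocyte and neuronal means differed by 0.79 (-0.42 to 1.99). These class intervals take member errors as independent and are not adjusted, while the adjusted test called 0 of 7 connexins.

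At P6 the log2 ratios between the labels ran from -0.23 in Gjc1 to 0.59 in Gjb6. Gjb1 had a log2 ratio of 0.15 ± 0.60, Gjc3 0.13 ± 0.70 and Gja1 0.14 ± 0.41 between the group labelled SMA and control. Gjb6 had 0.59 ± 0.65, with an interval of -0.68 to 1.87. The z test called 0 of 7 and 0 had an unadjusted p under 0.05, where 0.0458% of 19631 loci were called. Intervals this wide do not show that the levels were alike.

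At P10, where Smn1 of the group labelled SMA was near control, the glial connexins had lower values in that group than in control. Gjb1 was at 59.6% of control, a log2 ratio of -0.75 ± 0.50, and Gjc3 at 64.7%, a log2 ratio of -0.63 ± 0.89. Gja1, Gjb6 and Gjb2 had log2 ratios of -0.44 ± 0.42, -0.48 ± 0.72 and -0.42 ± 0.62. Gjd2 had 0.13 ± 0.61 and Gjc1 -0.06 ± 0.65. The z test called 0 of 7 and 0 had an unadjusted p under 0.05, where 0.0397% of 20157 loci were called. Every 95% interval between class means held 0 at P6 and at P10.

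**Figure D2:**
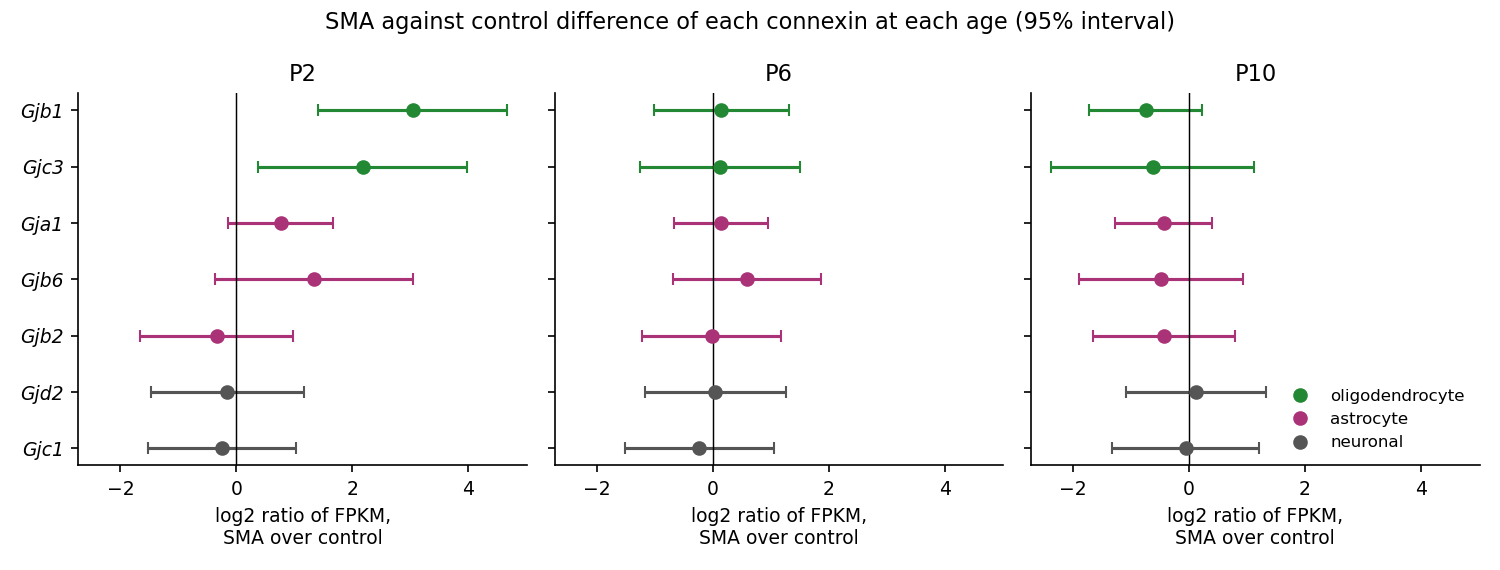
Points are the log2 ratio of FPKM, SMA over control, of each connexin at P2, P6 and P10, and bars are 95% intervals from the authors' model interval. At P2 the intervals of Gjb1 (1.42 to 4.66) and Gjc3 (0.38 to 3.98) lie above 0, and at P6 and P10 every interval spans 0.

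The change of the label difference from P2 to P10 was tested directly. This test uses the group labelled SMA at P10, whose Smn1 was near control. The change was -3.79 ± 0.97 on the log2 scale for Gjb1, -2.81 ± 1.28 for Gjc3, -1.20 ± 0.63 for Gja1 and -1.82 ± 1.13 for Gjb6. Gjb2, Gjd2 and Gjc1 had -0.08 ± 0.92, 0.28 ± 0.91 and 0.19 ± 0.92. The z test called 0 of 7 after Benjamini-Hochberg adjustment, with 2 at an unadjusted p under 0.05, where 0.0574% of 20916 loci were called. Gjb1 had an adjusted p of 0.0873 in the z test from FPKM and of 0.0162 from the deposited counts. The mean change of the oligodendrocyte connexins was below that of the astrocyte connexins by -2.26 (95% interval -4.14 to -0.38) and below that of the neuronal connexins by -3.53 (-5.55 to -1.51). These class intervals are also unadjusted.

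A limma fit across ages, which takes the 3 ages as replicates of the label difference, called 0 of 7 connexins. It called 1 of 21962 loci, or 0.00455%, the predicted gene Gm23604, named after its value was seen. On the log2(FPKM + 1) scale the difference was 0.57 ± 0.55 for Gjb1 and 0.43 ± 0.43 for Gjc3, and the smallest unadjusted p among the connexins was 0.166, for Gjb2. Leaving out P10, the age at which Smn1 went against its label, gave 1.21 ± 0.60 for Gjb1, 0.93 ± 0.47 for Gjc3 and 0.44 ± 0.18 for Gja1. Without P10 Gjb6 had 0.81 ± 0.19, with an unadjusted p of 0.0190 and an adjusted p of 0.707 in limma. Leaving out P2 gave -0.29 ± 0.23 for Gjb1, -0.24 ± 0.20 for Gjc3 and -0.14 ± 0.17 for Gja1. Their log2 ratios of FPKM between the labels were 0.15, 0.13 and 0.14 at P6 and -0.75, -0.63 and -0.44 at P10. The values below 0 without P2 thus came from P10, the age at which Smn1 went against its label.

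The mix of the 7 connexins changed with age in control. The oligodendrocyte connexins held 6.20%, 14.7% and 34.2% of the summed FPKM at P2, P6 and P10, and the neuronal connexins held 44.1%, 29.4% and 15.6%. The astrocyte connexins held 49.7%, 55.9% and 50.2%. In the groups labelled SMA the oligodendrocyte share was 22.6%, 14.8% and 28.3%, so it was lowest at P6, and the neuronal share was 24.3%, 26.7% and 22.2%. The summed FPKM of the 7 went from 52.0 to 121 in control, 2.33 times, and from 83.5 to 90.6 in the groups labelled SMA, 1.08 times.

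**Figure D3:**
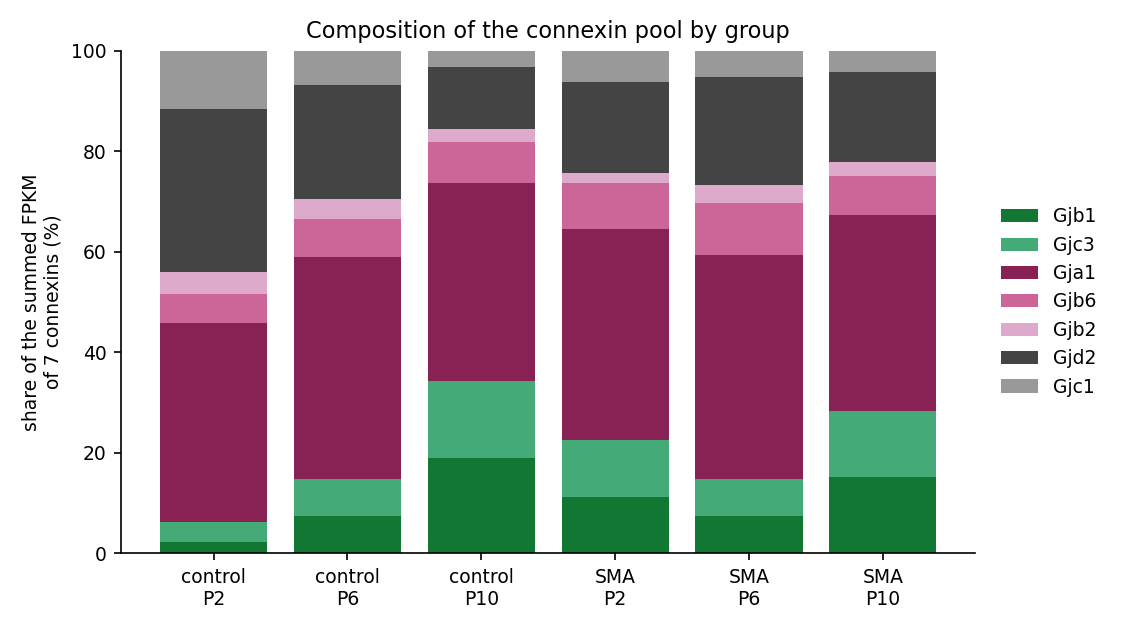
Stacked bars give the share of each connexin, in percent of the summed FPKM of the 7, in each of the 6 groups. The green oligodendrocyte block grows from 6.20% to 34.2% across control ages and is 22.6% in the group labelled SMA at P2.

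Gja1 stood first in each group, and the place below it changed. Gjd2 stood second in 5 of 6 groups, and Gjb1 stood second in control at P10. Gja1 exceeded its nearest neighbour beyond the interval of the difference in 4 groups but not in control at P2 or P6, where it led Gjd2 by 0.29 ± 0.56 and 0.97 ± 0.52 on the log2 scale. Most other neighbours did not differ beyond their intervals: in each group 1 or 2 of 6 neighbouring pairs did. Gjb1 and Gjc3 were neighbours in all 6 groups, with a ratio of Gjb1 to Gjc3 of 0.550 in control at P2, 1.26 in control at P10, and between 0.999 and 1.16 in the other 4 groups.

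Within the astrocyte connexins Gjb6 was 14.6%, 16.8% and 20.6% of Gja1 in control at P2, P6 and P10, and 21.7%, 23.0% and 19.9% in the groups labelled SMA. Gjb1 was 5.55%, 16.6% and 48.2% of Gja1 in control and 26.9%, 16.8% and 38.9% in the groups labelled SMA. Gjc1 was 36.1% of Gjd2 in control at P2 and 23.6% to 34.0% elsewhere.

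The protein-coding genes most like each connexin over the 6 group values were found by the root mean square distance of centred log2(FPKM + 1) profiles among 12140 loci. Nearest to Gjb1 were Tmem88b at 0.08 and Fa2h, a hydroxylase of myelin lipids, at 0.13; Gjc3 stood at 0.26, with 10 loci nearer. Gjc3 was nearest to Padi2, an arginine deiminase, at 0.07 and Tspan2, a tetraspanin, at 0.09. Gja1 was nearest to S100a16 at 0.05 and C1ql1 at 0.06, and Gjb6 to Sdc4, a proteoglycan, and Barx2, a homeobox factor, at 0.10 and 0.11. From Gjb6, Gja1 was at 0.16 with 26 loci nearer, while from Gja1 357 loci were nearer than Gjb6. From Gjc3, 48 loci were nearer than Gjb1. Gjb2 was nearest to Fam117a and Blvrb, a biliverdin reductase, at 0.03 and 0.04, and Gjc1 to Pop7 and Snapc2 at 0.04 and 0.05. Gjd2 was nearest to Pde1b, a phosphodiesterase, at 0.01 and Slc30a10, a metal transporter, at 0.01, and as its profile is nearly flat many loci are close to it. These distances rest on 6 points that share age and label.

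Markers of the cell classes moved beside the connexins. The 9 myelin markers with a locus of their own summed to FPKM 282, 1852 and 7785 in control at P2, P6 and P10 and to 3557, 2093 and 4345 in the groups labelled SMA, the same order of groups as Gjb1. Their median log2 ratio between the labels was 3.81 at P2, 0.18 at P6 and -0.81 at P10. At P2 4 of 9 were called higher in the group labelled SMA by the z test: Mal, Ermn, Cldn11 and Mag, with log2 ratios of 3.81, 4.21, 3.08 and 3.71, where 0.0994% of 19114 loci were called higher. Gjb1 stayed between 0.512% and 0.599% of Mbp in 5 groups and was 0.765% in control at P2. Gjc3 was 1.39% of Mbp in control at P2 and 0.429% to 0.531% in the other groups. The part of cell composition in the connexin differences was not tested.

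The astrocyte markers, 6 loci, summed to FPKM 346, 508 and 832 in control and 625, 594 and 635 in the groups labelled SMA. Their median log2 ratio between the labels was 0.81, 0.19 and -0.27 at the 3 ages, beside 0.76, 0.14 and -0.44 for Gja1. None of the 6 was called between the labels at any age. At P2 Gfap had 1.61 ± 0.77 and Aldoc 0.41 ± 0.48, and the 6 ran from 0.04 in Slc1a3 to 1.78 in S100b. The median at P2 is therefore not a level that the 6 shared. In control from P2 to P10 5 of 6 had higher values, while Slc1a3 went from FPKM 61.3 to 43.5. Gja1 was 33.6% of Slc1a3 in control at P2 and 110% in control at P10. The 7 neuron markers summed to FPKM 614 to 687 in all groups. Their sum hid opposite moves in control from P2 to P10, with 2 of 7 higher and 5 lower. Snap25 went from FPKM 109 to 165 and Tubb3 from 263 to 132. Between the labels the median log2 ratios of the 7 were -0.23, 0.08 and -0.03, beside -0.15, 0.05 and 0.13 for Gjd2.

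At P10 the median log2 ratio between the labels was below 0 for 9 of 10 cell type lists, all but ependyma. The 3 Schwann cell markers given here, which bear on Gjb1 because Schwann cells make it, summed to FPKM 26.8, 68.2 and 103.5 in control and 34.2, 84.6 and 53.9 in the groups labelled SMA. Pmp22, a membrane protein of nerve myelin, made up most of this sum, at FPKM 93.4 in control and 48.8 in the group labelled SMA at P10. It rose from P2 to P10 in control by a log2 ratio of 2.01 ± 0.48, with an adjusted p of 0.00559 in the z test, where 0.546% of loci were called higher. The median log2 ratio of the 3 between the labels was 0.35 at P2, where that of Gjb1 was 3.04, and -0.94 at P10, where that of Gjb1 was -0.75. The 6 fibroblast and meninges markers, which bear on Gjb2, had median log2 ratios of -0.16, 0.22 and -0.80, beside -0.34, -0.02 and -0.42 for Gjb2. Markers of precursors, vessel endothelium, pericytes and microglia had median log2 ratios of 0.79, 0.40, 0.49 and 0.44 at P2, and those of ependyma -0.49. At P10 the medians were -0.59, -0.49, -0.40 and -0.12, and 0.37 for ependyma, with 0 of these markers called between the labels at any age. No Schwann, fibroblast or meninges marker was called between the labels, and the part of these tissues in the connexin values was not tested.

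**Figure D4:**
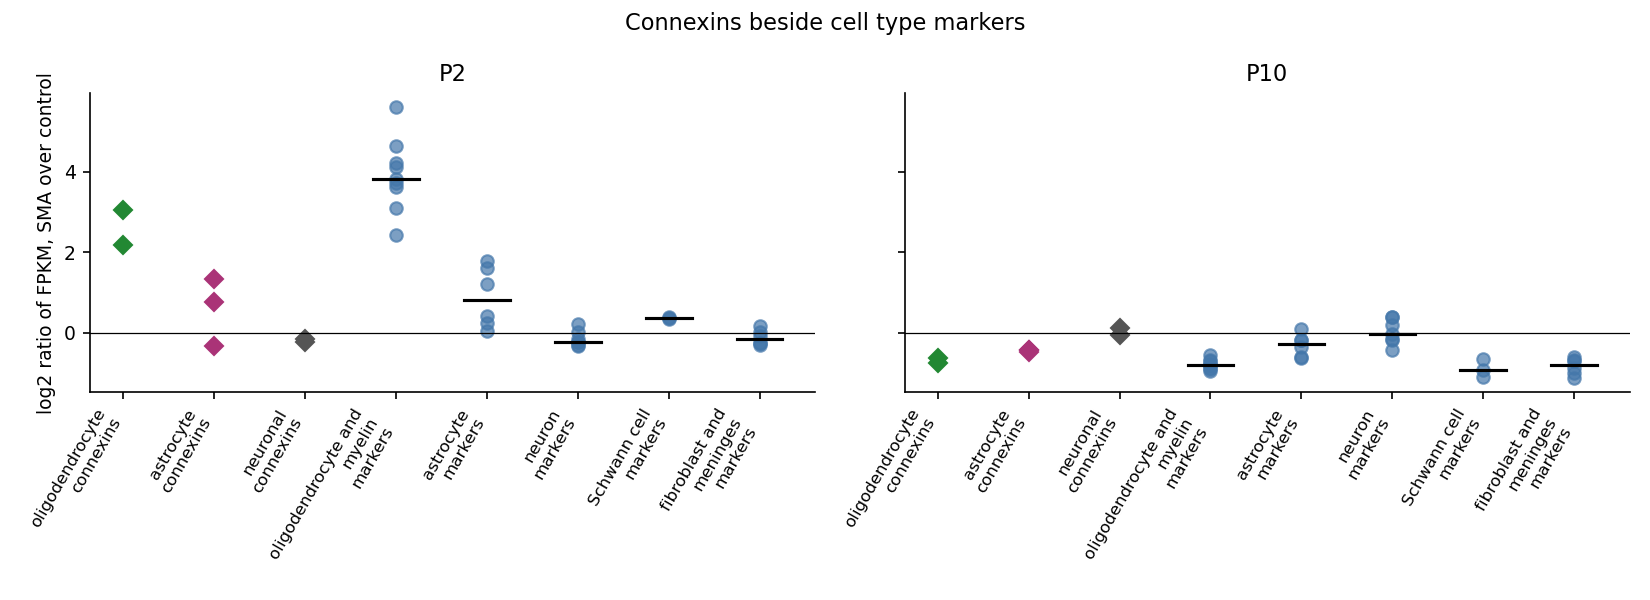
Each point is the log2 ratio of FPKM, SMA over control, of 1 gene at P2 (left) and P10 (right); diamonds are the connexins of each class, circles are cell type markers, and bars are marker medians. At P2 the myelin markers have a median of 3.81 and the oligodendrocyte connexins lie at 3.04 and 2.18, while the Schwann cell markers have a median of 0.35; at P10 the myelin and Schwann cell medians are -0.81 and -0.94.

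Of the other connexins and pannexins, 14 genes with a locus of their own are given here; 4 passed the filter at P2 and 0 were called in any comparison. Gja4, a connexin of vessel walls, was at FPKM 2.19 to 3.32 and Gja6 at 0.727 to 1.40. Gjd3 was split over 2 loci, at FPKM 0.324 to 1.20. The pannexins, which form channels and not gap junctions, were measured with wide errors: Panx1 at FPKM 7.88 to 14.5 and Panx2 at 5.41 to 10.8, with label differences at P2 of -0.32 ± 1.74 and 0.24 ± 1.32.

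Of the partners of connexins, the scaffolds and binding proteins of gap junctions, 9 loci were tested and 0 were called in any comparison. Their medians between the labels were 0.29 (P2), 0.22 (P6) and -0.27 (P10). The 2 most abundant were Ptprz1, a receptor phosphatase of glia, with -0.04 ± 0.66 at P2, and Dbn1, the actin-binding protein drebrin, which binds Cx43, with -0.32 ± 0.50. Of 5 channels and transporters in the list for the glial network, not all of them glial, Kcnj10 alone was called. This was only from P2 to P10 in control, where 0.546% of loci were called higher. Kcnj10 encodes an inward rectifier potassium channel of glia, and was at FPKM 6.94, 14.7 and 47.1 in control and 23.7, 16.2 and 24.3 in the groups labelled SMA. It rose by a log2 ratio of 2.76 ± 0.43 in control.

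Of 5 factors in the list of oligodendrocyte transcription factors, not all of them particular to these cells, 2 were called. This was only from P2 to P10 in control, beside the same 0.546% of loci. Sox10, a SOX family factor of oligodendrocytes and Schwann cells, was at FPKM 6.09, 9.78 and 22.0 in control and 10.5, 11.9 and 13.3 in the groups labelled SMA, with a log2 ratio of 1.85 ± 0.48 in control. Myrf, which switches on myelin genes, was at FPKM 2.59, 7.62 and 22.1 in control and 11.5, 10.1 and 13.7 in the groups labelled SMA, with 3.10 ± 0.50. The 7 loci of electrical synapses and related neuronal genes gave 0 calls, with medians between the labels of 0.11, 0.07 and -0.13. Camk2b and Camk2g, kinase subunits of a kind that binds Cx36, were at FPKM 44.4 to 52.0 and 44.3 to 49.8 in all groups.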

How the data were processed

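Total RNA of whole spinal cords was sequenced in 18 libraries, 3 for each of 6 groups. Per the submitters' processing notes, the authors used Bowtie2 2.2.4, TopHat2 2.1.1, Cufflinks 2.2.1 and Cuffdiff on GRCm38; the annotation, strand setting and normalization are not given in the sources used here. The authors deposited FPKM with a model interval, and expected counts (estimated fragments, not whole) with a model variance, both as 1 value per group and locus, so depth per library is unknown. Totals were near equal between groups, so the counts describe a scaled level.

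The log2 ratio of FPKM between groups was tested with a two-sided z test. Its standard error came from how far each upper bound lay above the FPKM, read as a 95% interval. Loci needed FPKM 1 or more in 1 compared group, FPKM above 0 in each and a status of OK. Benjamini-Hochberg adjustment ran over all loci tested, with calls at an adjusted p under 0.05. The spread of z was 0.269 to 0.474 of a standard normal, so the test called few loci. The count alternative used the deposited counts and variances in the same test. limma 3.58.1 in R 4.3.3 was fitted on log2(FPKM + 1) with age and label, 2 residual degrees of freedom and a trend. Python 3.11.15 with numpy 2.4.6, pandas 2.3.3 and scipy 1.17.1 did the rest, and the z test between 2 groups and the limma fit were tested on simulated data. Gene positions are from GENCODE M21 and promoters from RefSeq.

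The 7 genes, the marker lists and the tests were chosen with earlier results of these data known. Named genes were the 7, other connexins and pannexins at FPKM 1 or more, the called members of each list or else its 2 most abundant, and the 2 genes most like each connexin. Of the lists of precursors, endothelium, pericytes, microglia and ependyma only medians are given. Some genes of the lists are not reported here.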

Additional observations from a re-analysis of the deposited data

How the results depend on the processing

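No paired analysis was possible because the deposited tables carry no replicate numbers, and for the same reason no replicate could be left out. Errors are model intervals, so p-values do not measure a spread between animals. Of 403 values of single connexins under the alternatives, 373 were counted as unchanged. For values with a test this means the same direction and the same side of the threshold. For plain log2(FPKM + 1) ratios, which carry no test, it means the same direction and a value within the standard error of the main ratio. Those that turned direction near 0 were Gjd2 at P6 with median ratio scaling (-0.0067), Gjc1 at P10 from counts (0.070), Gja1 from P2 to P10 in the groups labelled SMA from counts (-0.080) and with scaling (-0.045), and in limma Gjd2 with scaling (-0.029), without P6 (-0.014) and without P10 (-0.050). In limma Gjb1, Gjc3 and Gja1 turned from 0.57, 0.43 and 0.15 to -0.29, -0.24 and -0.14 without P2. That fit keeps the group labelled SMA at P10, whose Smn1 was near control. The count of called loci depended on how the interval was read. For the labels at P2, P6 and P10 it was 24, 9 and 8, and became 123, 26 and 22 with the interval read as that of 1 library, 60, 17 and 13 with a log-scale interval (added after seeing the data), and 0 at P6 and at P10 from counts (8 and 29 at an unadjusted p under 0.05). For control P2 to P6, P6 to P10 and P2 to P10 it was 22, 15 and 126, and became 98, 207 and 920 with 1 library, 39, 47 and 367 with the log-scale interval, and 12 and 216 from counts for the first and the last. From P2 to P10 in the groups labelled SMA 12 became 2 from counts and 44 with 1 library. For the change of the label difference 12 became 23 from counts, 163 with 1 library and 56 with the log-scale interval. In limma 1 called locus became 0 without a filter, 0 with scaling, 5 without P2, 8 without P6 and 0 without P10. The count of called connexins moved from 0 at P2 to 1 from counts, 2 with 1 library and 1 with the log-scale interval, and the same for the change of the label difference. In control it moved from 2 to 1 without a filter, 4 with 1 library and 3 with the log-scale interval for P2 to P10, from 0 to 1 from counts, 1 with FPKM 5 or more, 2 with 1 library and 1 with the log-scale interval for P6 to P10, and from 0 to 1 with 1 library and 1 with the log-scale interval for P2 to P6. Gjb1 was among the added connexins except for control P2 to P10, where it was called already and the added ones were Gja1 and, with 1 library, also Gjb6. The change of the label difference was not run with FPKM 5 or more or with scaling.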
